A study of Mus musculus with 16 samples.

Results

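The 7 genes described here are Lin28a, Lin28b, Hmga1, Hmga2, Igf2bp1, Igf2bp2 and Igf2bp3, genes of the LIN28 and let-7 circuit that are active in embryonic and fetal cells. They were measured by 15 probes, taken as every gene probe whose gene name on the array was one of these symbols (Lin28a is written Lin28 there), out of 41174 gene probes on 16 one-colour mouse arrays. All 7 were among the 23161 genes tested. The study profiled mouse embryonic stem (ES) cells, which are in the naive pluripotent state, epiblast stem cells (EpiSC), which are in the later, primed state, and EpiSC-like cells of the NOD (non-obese diabetic) strain. The groups were NOD EpiSC-like iPS (line #6 at passages 7 and 12, 2 arrays), NOD EpiSC-like ES (line #1 at passages 5, 7, 9 and 10, 4 arrays), NOD ES (3 arrays, labelled 4K, 43 KP/CH and 85 KP), EpiSC iPS (2 arrays, labelled 3M and 1K), EpiSC (passages 12 and 20, 2 arrays), 129 ES cells in the medium labelled epiESM (passage 8, 1 array) and 129 ES cells in the medium labelled mESM (passage 8, 2 arrays). The strain of the EpiSC and EpiSC iPS cells is given only as non-NOD. What 4K, KP, CH, 3M and 1K mean, and which factors made the iPS cells, is not given in the sources used. Each NOD EpiSC-like group is 1 line sampled at several passages, and the mESM pair shares 1 source name. All p-values therefore speak only of the spread among these samples, part of which may be technical. By the labels' protocol, feeder fibroblasts were depleted from ES cells by preplating, whereas EpiSC and EpiSC-like colonies were separated by hand, so cell state and preparation cannot be told apart.

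LIN28A and LIN28B are RNA-binding proteins that bind the precursors of the let-7 microRNAs and keep them from maturing. LIN28A recruits terminal uridylyl transferases to the hairpin in the cytoplasm, and the tailed precursor is then degraded. Mature let-7 silences messages that carry its sites, among them those of Lin28a, Lin28b, Hmga2 and the IGF2BP family, so that the pathway forms a double-negative loop between LIN28 and let-7. HMGA1 and HMGA2 are architectural chromatin proteins that bind the minor groove of AT-rich DNA, and IGF2BP1, IGF2BP2 and IGF2BP3 are RNA-binding proteins that stabilise or localise messages such as Igf2 and Myc. In mouse, Lin28a is a well-known marker of ES cells and of the early epiblast.

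MicroRNAs were not measured on these arrays, and the mature let-7 sequences are shown because their seed (bases 2 to 8, in capitals) is the stretch that pairs with sites in target messages. In the RefSeq miRNA table for build GRCm38.p6, 11 mature mouse miRNAs carry the let-7a seed, 9 of them named let-7. One locus each of let-7a (chr13:48538239-48538260, minus strand), let-7d (chr13:48536078-48536099, minus strand), let-7g (chr9:106178846-106178867, plus strand) and miR-98 (chrX:151913229-151913250, plus strand) gives the following.
mmu-let-7a-5p: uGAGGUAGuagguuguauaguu
mmu-let-7d-5p: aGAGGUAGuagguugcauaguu
mmu-let-7g-5p: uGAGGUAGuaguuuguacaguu
mmu-miR-98-5p: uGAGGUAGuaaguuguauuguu
All 4 share the seed, and they differ in the 3' part of the molecule or, for let-7d, also in base 1.

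Promoters were available for 6 of the 7 genes (250 bases before to 50 after the start, RefSeq, GRCm38.p6), and those of Lin28a, Lin28b and Hmga1 are shown because they are the members with an entry that were called between the NOD states. Igf2bp1, also called there, has no entry. A pair of motifs was searched on both strands and are in capitals where found: the octamer ATTTGCAT (reverse complement ATGCAAAT), which POU-family factors such as OCT4 are known to bind, and the E-box CACGTG, known to be bound by MYC-MAX. The octamer is in 1.74% and the E-box in 7.15% of all 32851 promoters of this length.
Lin28a, chr4:134018767-134019066, minus strand: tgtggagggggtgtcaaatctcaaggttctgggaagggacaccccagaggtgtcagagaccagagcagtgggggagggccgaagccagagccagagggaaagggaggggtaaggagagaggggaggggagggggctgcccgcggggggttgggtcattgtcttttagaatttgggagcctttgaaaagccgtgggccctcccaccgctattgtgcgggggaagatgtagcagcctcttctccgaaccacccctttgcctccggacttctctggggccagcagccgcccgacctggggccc
Lin28b, chr10:45470152-45470451, minus strand: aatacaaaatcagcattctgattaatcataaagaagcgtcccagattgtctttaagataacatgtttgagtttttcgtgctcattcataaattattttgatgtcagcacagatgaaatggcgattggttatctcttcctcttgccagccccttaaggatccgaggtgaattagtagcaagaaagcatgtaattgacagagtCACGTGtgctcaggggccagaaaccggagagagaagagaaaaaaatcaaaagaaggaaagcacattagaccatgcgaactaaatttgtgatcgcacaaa
Hmga1, chr17:27556324-27556623, plus strand: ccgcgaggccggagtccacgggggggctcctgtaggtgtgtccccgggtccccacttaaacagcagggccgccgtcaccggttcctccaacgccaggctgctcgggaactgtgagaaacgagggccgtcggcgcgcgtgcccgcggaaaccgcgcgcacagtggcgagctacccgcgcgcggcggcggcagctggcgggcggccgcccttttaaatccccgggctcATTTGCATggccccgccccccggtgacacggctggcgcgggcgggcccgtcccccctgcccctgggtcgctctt
Neither motif was in the Lin28a window. Lin28b had 1 E-box in an AT-rich promoter of 39.0% GC, and Hmga1 had 1 octamer in a promoter of 74.0% GC. The Igf2bp3 window had 2 E-boxes, and those of Hmga2 and Igf2bp2 held neither motif. A match describes the letters of a window and is no measurement of binding.

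Signal was well above local background for 26.3% to 88.5% of gene spots per array, and no gene spot was saturated. NOD ES replicate 1 (26.3%) and EpiSC iPS replicate 2 (40.5%) were the dimmest arrays, and both went against their labels in overall pattern. The SD of log2 differences over genes was 0.387 and 0.397 between EpiSC iPS replicate 2 and NOD ES replicates 2 and 3, and 0.963 between the EpiSC iPS arrays. NOD ES replicate 1 differed from EpiSC iPS replicate 1 by 0.697, against 1.13 and 1.15 from its partners. Member results and list counts that rest on these 2 arrays are therefore also given without them, a fit that calls more of all genes in every comparison. The 7 naive markers summed to 1.05 to 2.04 in NOD EpiSC-like cells (in multiples of the array's 75th percentile), against 607 to 971 in NOD ES. They summed to 844 to 877 in EpiSC iPS, against 1.03 to 1.07 in EpiSC, and to 668 to 674 in mESM. The 6 primed markers summed to 5.12 to 5.39 in NOD EpiSC-like iPS and 12.1 to 15.6 in NOD EpiSC-like ES, against 46.7 to 46.9 in EpiSC. The 4 general pluripotency markers summed to 1.58 to 2.31 in NOD EpiSC-like iPS and 4.74 to 6.52 in NOD EpiSC-like ES, against 7.43 in both EpiSC arrays. Pou5f1, the gene of OCT4, averaged -3.91 in NOD EpiSC-like iPS and was well above background on 1 of its 2 arrays. The NOD EpiSC-like lines thus had low levels of naive markers and lower levels of primed markers than EpiSC, and EpiSC iPS had the naive markers at ES levels. The 14 fibroblast markers summed to 502 to 543 in NOD EpiSC-like iPS, 473 to 678 in NOD EpiSC-like ES, 57.9 to 208 in NOD ES, 57.8 and 561 in EpiSC iPS, 300 to 320 in EpiSC, 213 in epiESM and 8.84 to 8.99 in mESM, and 10 to 14 of the 14 were well above background on every array. The 6 neural markers summed to 67.6 to 80.8 in NOD EpiSC-like ES and 34.6 to 37.8 in EpiSC, against 1.91 to 14.6 in every other group.

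Lin28a was low in the NOD EpiSC-like lines and high everywhere else. A level here is the log2 ratio of a probe's processed signal to the 75th percentile of its array, so 0 is that percentile. Lin28a, whose probe lies at chr4:133382045-133382104 on the minus strand of mm7 (the build of the array's probe map), measured -0.58 and -0.88 in NOD EpiSC-like iPS. It measured -0.54, -0.47, -0.77 and -0.62 in the 4 NOD EpiSC-like ES arrays. It measured 1.42, 1.99 and 1.96 in NOD ES. No NOD EpiSC-like array reached any array of another group, whose lowest was the EpiSC culture at passage 20. The other groups read 1.82 and 2.04 in EpiSC iPS, 1.68 and 1.31 in EpiSC, 2.48 in epiESM and 1.99 on both mESM arrays. In the order of group means, mESM, EpiSC iPS and NOD ES (1.99, 1.93 and 1.79) had overlapping ranges, and so did both EpiSC-like groups at the bottom (-0.60 and -0.73). Because each sample was a whole culture, fewer cells of a type and less RNA per cell cannot be told apart.

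Lin28b separated the groups in another way. Its chosen probe, the one of 3 with the highest mean (chr10:45189273-45189332, minus strand) measured -3.82 and -3.98 in NOD EpiSC-like iPS, where it was well above background on 1 of 2 arrays. It measured -1.66, -1.02, -1.23 and -1.36 in NOD EpiSC-like ES, and -0.55, -0.53 and -0.58 in NOD ES, where NOD ES replicate 1 was not well above background. Both EpiSC arrays (0.62 and 1.13) and both mESM arrays (0.79) were higher than every NOD array, and the EpiSC iPS arrays (-1.28 and -0.78) were lower than both. The epiESM culture lay between, at -0.14. The NOD EpiSC-like iPS line was thus at the bottom for both LIN28 genes, while NOD EpiSC-like ES overlapped EpiSC iPS for Lin28b and not for Lin28a. The other Lin28b probes lie further 5' on the gene's strand and were well above background on only 7 and 6 arrays.

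**Figure D1:**
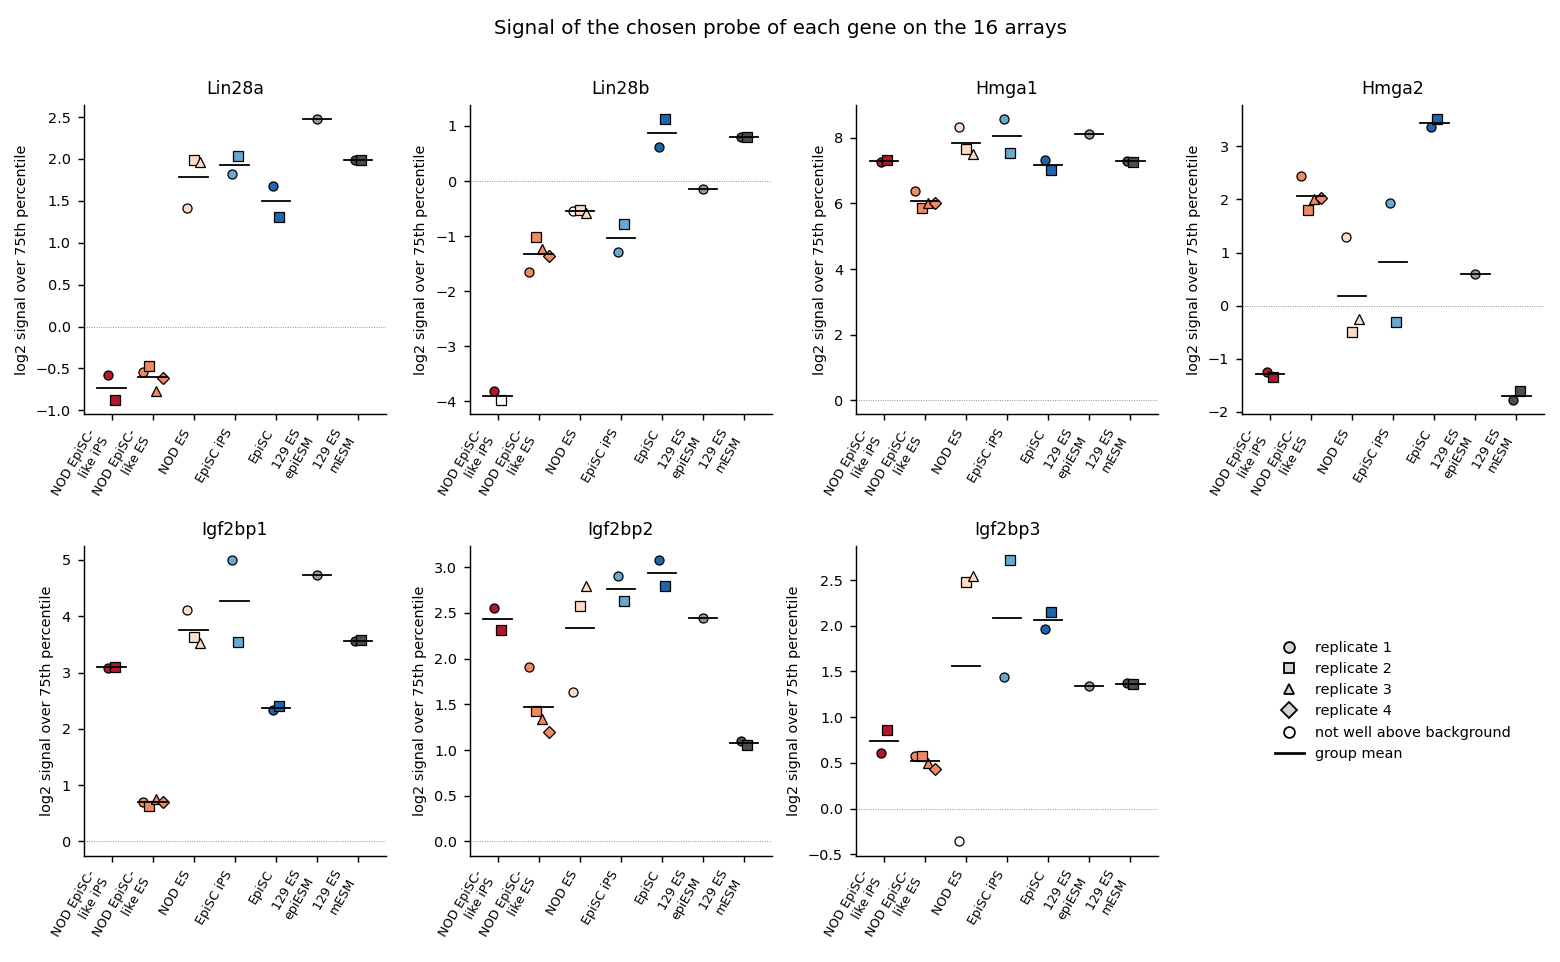
Level of the chosen probe of each of the 7 genes on the 16 arrays (log2 of processed signal over the array's 75th percentile), by group, with symbols for replicates, open symbols for spots not well above background and lines for group means. Lin28a lies between -0.88 and -0.47 in both NOD EpiSC-like groups and between 1.31 and 2.48 elsewhere, and Hmga2 is highest in EpiSC at 3.36 and 3.52.

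Hmga1 was lowest in the NOD EpiSC-like ES line. It measured 7.25 and 7.32 in NOD EpiSC-like iPS, 6.37, 5.86, 6.01 and 6.00 in NOD EpiSC-like ES, and 8.32, 7.67 and 7.52 in NOD ES. The 4 NOD EpiSC-like ES arrays were below all 12 others. It measured 8.58 and 7.54 in EpiSC iPS, 7.32 and 7.01 in EpiSC, 8.12 in epiESM and 7.30 and 7.26 in mESM. The mouse genome holds a near-identical Hmga1 copy, so this probe (chr17:25749229-25749288, plus strand) may read both.

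Hmga2, a let-7 target active in fetal growth, was highest in EpiSC. Its chosen probe (chr10:119755899-119755958, minus strand) measured -1.24 and -1.34 in NOD EpiSC-like iPS and 2.45, 1.80, 2.01 and 2.02 in NOD EpiSC-like ES. It measured 1.29, -0.50 and -0.25 in NOD ES, 1.94 and -0.30 in EpiSC iPS, 3.36 and 3.52 in EpiSC, 0.60 in epiESM and -1.78 and -1.61 in mESM. EpiSC was above every other group, and NOD EpiSC-like iPS and mESM were below all others, with a gap between their means (0.40) that was smaller than the fit's residual SD (0.67). NOD ES replicate 1 and EpiSC iPS replicate 1 stood above the rest of their groups, and these were the arrays with fibroblast sums of 208 and 561, against 57.8 to 58.3 in the rest. The part of fibroblast RNA in the Hmga2 level was not tested.

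By its chosen probe, Igf2bp1 was high in the naive cultures and in 1 of the EpiSC-like lines, and its most 3' probe, given further on, was low in both lines. The chosen probe (chr11:96072251-96072310, minus strand) measured 3.09 and 3.10 in NOD EpiSC-like iPS and 0.71, 0.63, 0.75 and 0.71 in NOD EpiSC-like ES. It measured 4.11, 3.63 and 3.53 in NOD ES, 5.0 and 3.55 in EpiSC iPS, 2.33 and 2.40 in EpiSC, 4.73 in epiESM and 3.56 and 3.57 in mESM. NOD EpiSC-like ES was below all other groups without overlap, and EpiSC was the next lowest.

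Igf2bp2 was lowest in mESM and in the NOD EpiSC-like ES line. Igf2bp2 (chr16:21710360-21710420, minus strand) measured 2.55 and 2.31 in NOD EpiSC-like iPS, 1.91, 1.43, 1.34 and 1.20 in NOD EpiSC-like ES, and 1.64, 2.58 and 2.80 in NOD ES. It measured 2.90 and 2.63 in EpiSC iPS, 3.08 and 2.80 in EpiSC, 2.45 in epiESM and 1.1 and 1.06 in mESM, which was the lowest group. Igf2bp3 (chr6:49047900-49048507, minus strand) measured 0.61 and 0.86 in NOD EpiSC-like iPS and 0.43 to 0.58, with a median of 0.53, in NOD EpiSC-like ES. It measured -0.36, 2.48 and 2.55 in NOD ES, the first of these not well above background, and 1.34 to 2.72 in the 7 arrays of the other groups. All 6 EpiSC-like arrays were below every other array except NOD ES replicate 1.

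The first comparison asked which members differed between the NOD cell states. NOD EpiSC-like cells, as the mean of both lines weighted equally, had 5.48-fold less Lin28a than NOD ES cells (log2 difference -2.46 ± 0.18 SE, adjusted p = 2.02e-06) and 4.16-fold less Lin28b (-2.06 ± 0.20, adjusted p = 1.07e-05). Igf2bp1 was 3.63-fold lower (-1.86 ± 0.27, adjusted p = 0.000221) and Hmga1 2.25-fold lower (-1.17 ± 0.26, adjusted p = 0.0036). All p-values here and below are from limma fitted to the 16 arrays and adjusted by Benjamini-Hochberg over 23161 genes, and a gene is called at an adjusted p under 0.05. Of the 7 members, 4 were called lower and 0 higher, where 22.0% of all genes were called lower, 16.7% higher and 38.7% in either direction. The median difference was -1.17 over the members and -0.27 over all genes tested. Hmga2 (0.21 ± 0.48), Igf2bp2 (-0.39 ± 0.26) and Igf2bp3 (-0.93 ± 0.56) did not pass by their chosen probes. Single probes were also fitted, with limma over 34288 probes. Hmga2 was called higher by the probe at chr10:119756830-119756889 (2.03 ± 0.54, adjusted p = 0.0119) and not by its most 5' probe (0.53 ± 0.26). Igf2bp3 was called lower by the probe at chr6:49067452-49067511 (-1.27 ± 0.32, adjusted p = 0.00934) and not by its other probe (-0.52 ± 0.60). The lines were alike for Lin28a (means of -0.60 in the ES line and -0.73 in the iPS line, against 1.79 in NOD ES). Lin28b averaged -1.32 and -3.90 in these lines, against -0.55. By the chosen probes, Igf2bp1 averaged 0.70 and 3.09, against 3.76, and Hmga1 6.06 and 7.28, against 7.84. Hmga2 averaged 2.07 and -1.29, against 0.18.
Without NOD ES replicate 1 and EpiSC iPS replicate 2 all 7 were called, where that fit called 51.7% of all genes: 6 were lower and Hmga2 was higher (0.77 ± 0.17, adjusted p = 0.00417), with Igf2bp3 at -1.89 ± 0.11 and Igf2bp2 at -0.74 ± 0.19. With the slide as a block 2 members were called, and Hmga1 (adjusted p = 0.0968) and Igf2bp1 (adjusted p = 0.0877) were not. On the slide that held both states, Lin28a differed by -2.44, Lin28b by -0.47, Hmga1 by -1.74, Hmga2 by 2.18, Igf2bp1 by -2.95, Igf2bp2 by -1.26 and Igf2bp3 by -1.94. Only NOD EpiSC-like ES replicate 2 stood for the EpiSC-like state there. Lin28b was -0.11 (adjusted p = 0.747) with normexp background correction. Fibroblast sums were also higher in the EpiSC-like cells (473 to 678) than in NOD ES cells (57.9 to 208), and their part in these differences was not tested.

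The nearest comparison outside NOD was EpiSC against 129 ES cells in mESM, and there the LIN28 genes did not pass. The EpiSC strain is given only as non-NOD, so state and strain cannot be told apart in it. Lin28a differed by -0.50 ± 0.25 (adjusted p = 0.18) and Lin28b by 0.08 ± 0.27 (adjusted p = 0.837). Hmga2 was 35.2-fold higher in EpiSC (5.14 ± 0.67, adjusted p = 0.000283), and Igf2bp2 was 3.62-fold higher (1.86 ± 0.36, adjusted p = 0.0035). Igf2bp1 was 2.29-fold lower by its chosen probe (-1.20 ± 0.38, adjusted p = 0.0387), and Hmga1 (-0.11 ± 0.36) and Igf2bp3 (0.70 ± 0.77) did not pass. That made 2 members called higher and 1 lower, where 12% of all genes were called higher, 12.7% lower and 24.6% either way, with a member median of 0.08 and an all-gene median of -0.34. The Igf2bp1 call was lost when either array of either group was left out (adjusted p = 0.132 to 0.154) and when the mESM arrays were averaged. Neither other Igf2bp1 probe was called, with -0.24 ± 0.29 (adjusted p = 0.577) by the most 3' probe and -0.80 ± 0.44 (adjusted p = 0.22) by the remaining probe. Without the pair of doubtful arrays, which are in neither group but set the shared spread, 5 members and 45.9% of all genes were called, with Lin28a (-0.50 ± 0.17, adjusted p = 0.0417) and Igf2bp3 (0.70 ± 0.13, adjusted p = 0.00249) added. EpiSC and mESM shared no slide, and the fibroblast sums were 300 to 320 in EpiSC and 8.84 to 8.99 in mESM. The part of slide and of fibroblast RNA in these differences was not tested.

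Whether the state difference itself differed between NOD and non-NOD cells was tested as an interaction in the same fit. The strain of the EpiSC, and EpiSC-like lines against EpiSC, cannot be told apart from the NOD and non-NOD contrast in it. It was lower in NOD for Lin28a (-1.96 ± 0.31, adjusted p = 0.00282), Lin28b (-2.14 ± 0.33, adjusted p = 0.00257), Hmga2 (-4.93 ± 0.82, adjusted p = 0.00353) and Igf2bp2 (-2.25 ± 0.45, adjusted p = 0.00838). Of the 7 members, 4 were called lower and 0 higher, where 7.53% of all genes were called lower and 5.0% higher. Hmga1 (-1.06 ± 0.44), Igf2bp1 (-0.66 ± 0.46) and Igf2bp3 (-1.63 ± 0.95) did not pass by their chosen probes. By its most 3' probe Igf2bp1 was called lower (-2.90 ± 0.36, adjusted p = 0.00103 in limma over 34288 probes). Its other probe gave -1.15 ± 0.54 (adjusted p = 0.223). The NOD side averages both EpiSC-like lines. By the chosen Hmga2 probe these lay on opposite sides of NOD ES, with means of 2.07 in the ES line and -1.29 in the iPS line, against 0.18. By the probe at chr10:119756830-119756889 both lines were above NOD ES (-1.25 and -1.07, against -3.19). The most 5' probe averaged -2.20 and -3.05, against -3.15. The member median was -1.96, against 0.00 over all genes. With the slide as a block limma called none of the 7 (adjusted p = 0.059 to 0.787, with 5 at an unadjusted p under 0.05). With normexp, which called 36 genes in all, Igf2bp1 was the only member called (-3.14 ± 0.51), and there its most 3' probe stood for it. All 7 were called lower without the pair of doubtful arrays, where 20.2% of all genes were called lower and 35.4% either way.

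**Figure D2:**
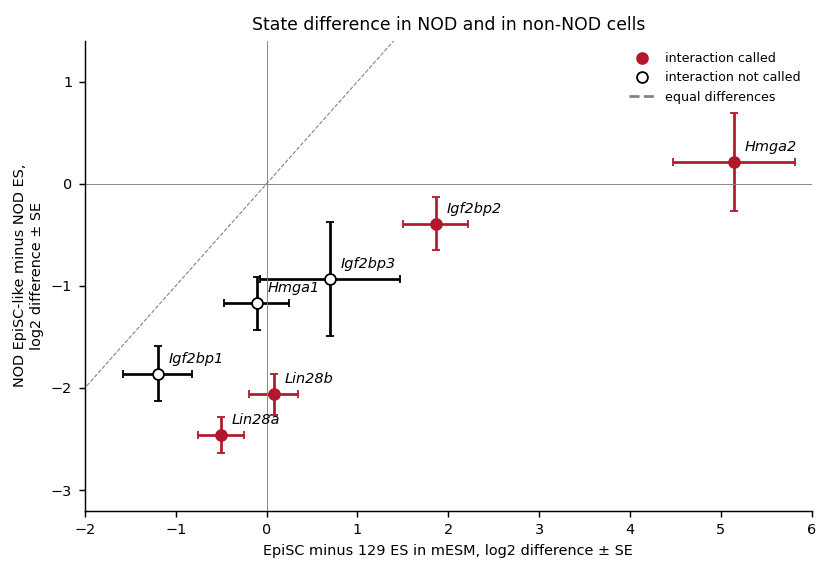
State difference of each member in NOD cells (NOD EpiSC-like minus NOD ES, vertical) against that in non-NOD cells (EpiSC minus 129 ES in mESM, horizontal), log2 differences with SE bars and a dashed line of equal differences. Lin28a and Lin28b differ by -2.46 and -2.06 in NOD cells but by -0.50 and 0.08 outside NOD. By its chosen probe, Hmga2 differs by 5.14 outside NOD and by 0.21 in NOD cells, where that probe puts the lines on opposite sides of NOD ES.

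Set directly against EpiSC, the NOD EpiSC-like lines were lower for both LIN28 genes, Hmga2 and Igf2bp2. Lin28b was 11.2-fold lower (-3.49 ± 0.22, adjusted p = 1.01e-05), Hmga2 8.30-fold lower (-3.05 ± 0.55, adjusted p = 0.00396), Lin28a 4.47-fold lower (-2.16 ± 0.21, adjusted p = 0.000106) and Igf2bp2 1.99-fold lower (-0.99 ± 0.30, adjusted p = 0.0455). Of the 7 members, 4 were called lower and 0 higher, where 8.22% of all genes were called lower and 7.88% higher, and the member median was -1.44 against 0.27 over all genes. Hmga1 (-0.50 ± 0.30), Igf2bp1 (-0.47 ± 0.31) and Igf2bp3 (-1.44 ± 0.64) did not pass. All 7 were called lower without the pair of doubtful arrays, where 19.6% of all genes were called lower and 41.3% either way. Igf2bp1 was called lower by its most 3' probe (-2.01 ± 0.24, adjusted p = 0.000465), with the deposited table (-2.01 ± 0.20), with normexp (-2.40 ± 0.34) and as the mean of its probes (-1.03 ± 0.24, adjusted p = 0.0163), and Hmga1 with the deposited table (-0.78 ± 0.16, adjusted p = 0.00428). The other Hmga2 probes gave -0.81 ± 0.62 (adjusted p = 0.395) and -1.23 ± 0.30 (adjusted p = 0.0205), and the mean of the 3 gave -1.70 ± 0.45. The mean of the Lin28b probes was -2.06 ± 0.71 (adjusted p = 0.0819). On the slide with both NOD lines and EpiSC replicate 1, Lin28a differed by -2.24 and Lin28b by -3.36. On the slide with NOD EpiSC-like ES replicate 3 and EpiSC replicate 2 they differed by -2.07 and -2.36, and Hmga2 by -1.51. Without EpiSC replicate 2 only 2 members were called. The Igf2bp2 call was lost when any single array of the compared groups, other than NOD EpiSC-like ES replicate 1, was left out (adjusted p = 0.0612 to 0.266). This comparison shares its NOD EpiSC-like arrays with the first and its EpiSC arrays with the second.

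The NOD EpiSC-like lines, 1 from iPS and 1 from ES cells, differed from each other for 5 of the 7 members. By the chosen probes, NOD EpiSC-like iPS had 10.3-fold less Hmga2 than NOD EpiSC-like ES (-3.36 ± 0.58, adjusted p = 0.00176) and 6.00-fold less Lin28b (-2.58 ± 0.23, adjusted p = 3.62e-05). The other Hmga2 probes gave 0.18 ± 0.65 and -0.85 ± 0.32. The other Lin28b probes, not well above background on either iPS-line array, gave 0.77 ± 0.60 and -0.22 ± 1.74. None of these was called. The iPS line had 5.25-fold more Igf2bp1 by the chosen probe (2.39 ± 0.33, adjusted p = 0.000438), 2.34-fold more Hmga1 (1.23 ± 0.31, adjusted p = 0.0142) and 1.95-fold more Igf2bp2 (0.96 ± 0.31, adjusted p = 0.0438). Thus 3 were called higher and 2 lower, where 14.2% of all genes were called higher, 11.6% lower and 25.8% either way, with a member median of 0.22 and an all-gene median of 0.28. Lin28a (-0.13 ± 0.22, adjusted p = 0.683) and Igf2bp3 (0.22 ± 0.67) did not pass. On the slide that held an array of each line, the differences were -3.69 for Hmga2, -2.16 for Lin28b, 2.38 for Igf2bp1, 0.88 for Hmga1 and 0.64 for Igf2bp2. With normexp background correction limma called none of the 7 (1 at an unadjusted p under 0.05) and 60 genes in all. The median of all genes was then 0.77 instead of 0.28, and Lin28b, Hmga1, Igf2bp1 and Igf2bp2 changed sign. The slide as a block left 1 call. Without either array of the iPS line 3 members were called. Primed markers were lower in the iPS line (5.12 to 5.39) than in the ES line (12.1 to 15.6), as were neural markers (14.2 to 14.6 and 67.6 to 80.8), and their part in these differences was not tested.

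**Figure D3:**
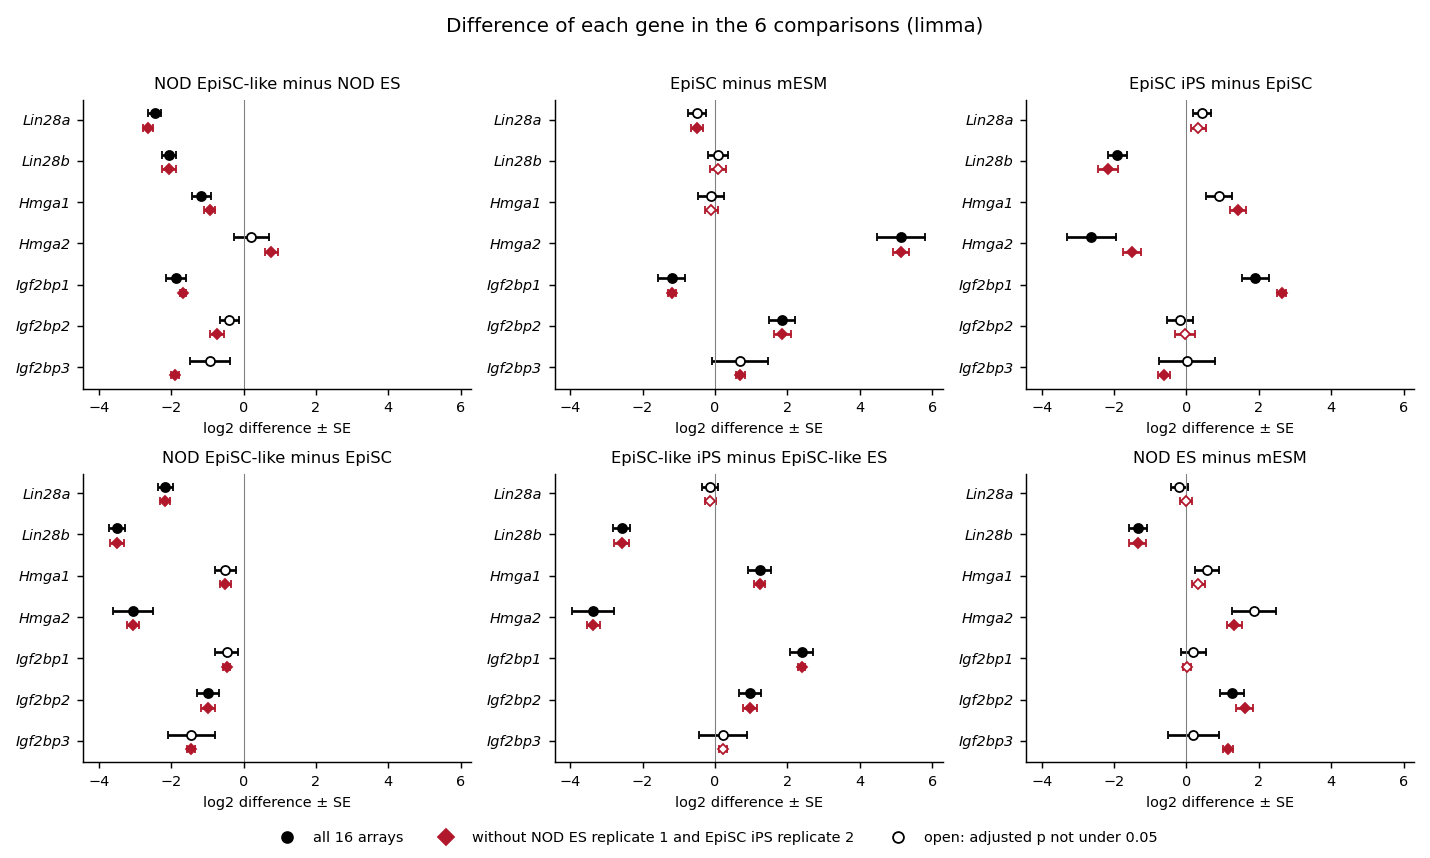
Log2 difference with SE of each member in the 6 comparisons, for all 16 arrays (circles) and without NOD ES replicate 1 and EpiSC iPS replicate 2 (diamonds), filled where the adjusted p was under 0.05. In NOD EpiSC-like minus NOD ES, the Igf2bp3 difference is -0.93 with all arrays and -1.89 without the 2 arrays, while Lin28a is -2.46 and -2.64.

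EpiSC iPS cells were compared with the EpiSC they are named for. Lin28b was 3.75-fold lower (-1.91 ± 0.27, adjusted p = 0.000584), Hmga2 6.17-fold lower (-2.63 ± 0.67, adjusted p = 0.0162) and Igf2bp1 3.74-fold higher (1.90 ± 0.38, adjusted p = 0.00433). That made 1 member called higher and 2 lower, where 12.2% of all genes were called higher and 8.99% lower, with a member median of 0.02 and an all-gene median of 0.42. Lin28a (0.43 ± 0.25), Hmga1 (0.89 ± 0.36), Igf2bp2 (-0.17 ± 0.36) and Igf2bp3 (0.02 ± 0.77) did not pass. With EpiSC iPS replicate 1 alone, after both doubtful arrays were left out, Lin28b differed by -2.16 ± 0.28, Hmga2 by -1.51 ± 0.25, Igf2bp1 by 2.63 ± 0.13, Hmga1 by 1.42 ± 0.23 and Igf2bp3 by -0.62 ± 0.16, and all 5 passed, where that fit called 42.0% of all genes. That fit takes the lone array to vary like the other groups. The Hmga2 call did not hold without either EpiSC array (adjusted p = 0.0691 and 0.0931) or without EpiSC iPS replicate 2 alone (-1.51 ± 0.60, adjusted p = 0.0945). Igf2bp1 was 0.88 ± 0.41 with normexp, which takes its most 3' probe. The groups shared no slide.

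NOD ES cells differed from 129 ES cells in mESM for 2 members. Lin28b was 2.54-fold lower in NOD ES (-1.35 ± 0.25, adjusted p = 0.00838) and Igf2bp2 2.39-fold higher (1.26 ± 0.33, adjusted p = 0.0384), where 3.06% of all genes were called lower, 5.88% higher and 8.94% either way. The member median was 0.19, against 0.22 over all genes. Lin28a (-0.20 ± 0.23), Hmga1 (0.56 ± 0.33), Hmga2 (1.87 ± 0.61, adjusted p = 0.0827), Igf2bp1 (0.19 ± 0.34) and Igf2bp3 (0.19 ± 0.71) did not pass. Both calls were lost when the mESM arrays, which differed from each other by an SD of only 0.200, were averaged or either was left out, and the Igf2bp2 call without NOD ES replicate 2 or 3. Without the pair of doubtful arrays Hmga2 (1.32 ± 0.21) and Igf2bp3 (1.15 ± 0.13) were called as well, where 25.9% of all genes were called. The groups shared no slide, and 10 of the 14 fibroblast markers were called higher in NOD ES, whose sums were 57.9 to 208 against 8.84 to 8.99 in mESM. Their part was not tested.

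Lin28b, Hmga2, Igf2bp1 and Igf2bp3 had 3 probes each, and for Igf2bp1 and Hmga2 these did not change together. Whether the probes of a gene differed in their log2 difference was tested with limma's diffSplice over the 7598 genes with several probes, a test chosen after the data were seen. For Igf2bp1, NOD EpiSC-like iPS minus NOD EpiSC-like ES was 2.39 by the chosen probe, 0.87 by the probe at chr11:96071229-96071288 and -0.31 by the most 3' probe at chr11:96067137-96067196 (adjusted p of the probe test 0.00023), where 21.3% of genes were called. The most 3' probe measured 0.97 and 0.94 in NOD EpiSC-like iPS and 1.82, 1.13, 0.99 and 1.1 in NOD EpiSC-like ES. The same probes gave -1.86, -1.95 and -3.14 in NOD EpiSC-like minus NOD ES (adjusted p = 0.0332), where 11.8% of genes were called. Igf2bp1 was thus lower than in NOD ES by all 3 probes, whereas the difference between the EpiSC-like lines depended on the probe.
For Hmga2, EpiSC minus mESM was 5.14 by the chosen probe, 1.69 by the probe at chr10:119756830-119756889 and 2.68 by the probe at chr10:119769076-119769135, the most 5' of the 3 (adjusted p = 0.0362), where 7.19% of genes were called. The difference between the EpiSC-like lines was -3.36, 0.18 and -0.85 by these probes (adjusted p = 0.00336). The interaction for Hmga2 was called in the probe test too (adjusted p = 0.0149), where 3.92% of genes were called, and it was 0.34 by the probe at chr10:119756830-119756889. The array files tie the 3 probes of each of these genes to different transcript records, and probe sequences were not used here. For Lin28b and Igf2bp3 the probe test passed in none of the comparisons, with adjusted p of 0.296 or more by limma and the lowest unadjusted p at 0.121.

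**Figure D4:**
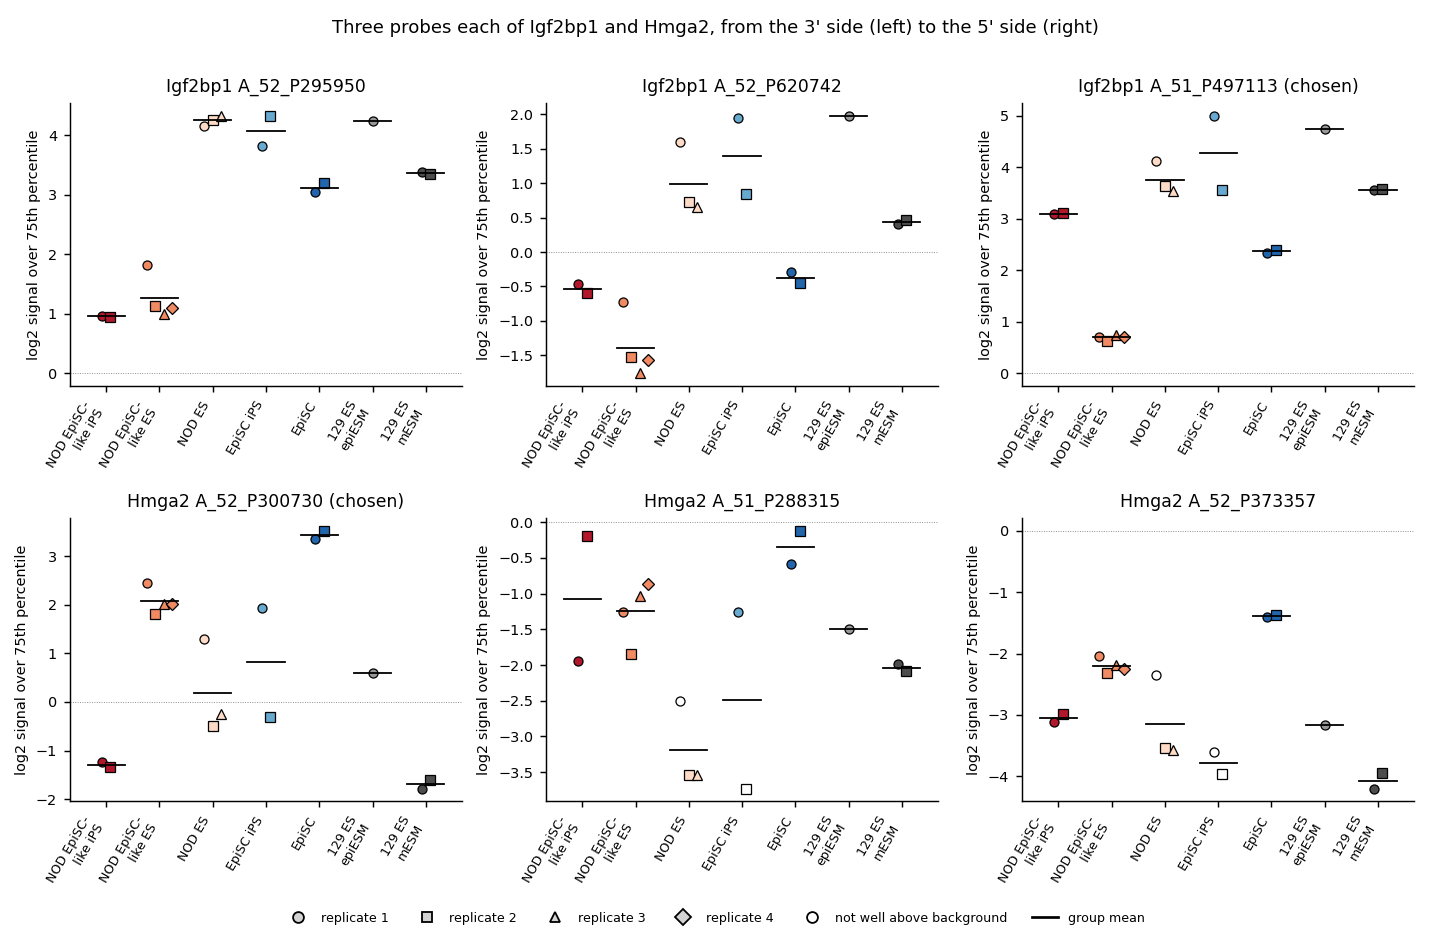
Level of the 3 probes of Igf2bp1 (top) and of Hmga2 (bottom) on the 16 arrays, in log2 over the array's 75th percentile, each on its own scale, by group and replicate, from the 3' side on the left to the 5' side on the right. The chosen Igf2bp1 probe lies at 3.09 and 3.10 in NOD EpiSC-like iPS and at 0.63 to 0.75 in NOD EpiSC-like ES, while the most 3' probe lies at 0.94 and 0.97 and at 0.99 to 1.82.

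Genes of let-7 processing and turnover were set beside the members as a list of 10, all measured. Of these, 5 were called lower and 1 higher in NOD EpiSC-like minus NOD ES, where 22.0% of all genes were called lower and 16.7% higher. The list median was -0.96, against -0.27 over all genes. Drosha, the nuclease that cuts primary miRNAs, was lower (-2.20 ± 0.15, adjusted p = 1.26e-06), as were Dgcr8, its RNA-binding partner (-2.03 ± 0.21, adjusted p = 2.13e-05), and Dicer1, which cuts the hairpin (-1.62 ± 0.29, adjusted p = 0.000915). In EpiSC minus mESM 2 were called lower and 1 higher (median -0.17), namely the export factor Xpo5 (-1.74 ± 0.27), Dgcr8 (-1.23 ± 0.30) and the Dicer partner Prkra (1.11 ± 0.34). Of the 10, 5 were higher and 2 lower in EpiSC iPS minus EpiSC, 3 higher in NOD ES minus mESM with Drosha leading (1.33 ± 0.19), 2 higher and 1 lower between the EpiSC-like lines, 1 lower in NOD EpiSC-like minus EpiSC (Drosha, -0.75 ± 0.17), and 2 lower in the interaction. The share of all genes called either way was 24.6% in EpiSC minus mESM and 21.2% in EpiSC iPS minus EpiSC. It was 16.1% in NOD EpiSC-like minus EpiSC, 25.8% between the EpiSC-like lines, 8.94% in NOD ES minus mESM and 12.5% in the interaction. Without the pair of doubtful arrays 7 of the 10 were lower and 1 higher in NOD EpiSC-like minus NOD ES, and 4 were lower in the interaction. That fit called 28.3% and 20.2% of all genes lower in these comparisons. With the slide as a block 5 were lower in the NOD comparison and none in the interaction (2 at an unadjusted p under 0.05 in limma).

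Of 21 listed let-7 targets outside the members, 19 were measured and the others, Trim71 and Irs2, are not used here. In NOD EpiSC-like minus NOD ES, 7 were called lower and 2 higher, where 22.0% of all genes were called lower and 16.7% higher. The list median was -0.28, beside -0.27 over all genes. Mycn, a MYC-family factor of ES cells, was lower (-3.05 ± 0.23, adjusted p = 2.34e-06), as was Rrm2, a subunit of ribonucleotide reductase (-2.93 ± 0.29, adjusted p = 1.3e-05), whereas Ccnd2, cyclin D2, was higher (2.29 ± 0.64, adjusted p = 0.0141). In EpiSC minus mESM, 7 were called higher and 1 lower (median 0.08), led by Ccnd2 (4.33 ± 0.89), the G1 kinase Cdk6 (2.37 ± 0.32) and Ccnd1 (1.79 ± 0.28). In the interaction 7 were called lower and 0 higher, where 7.53% of all genes were called lower and 5.0% higher. The median was -1.17, against 0.00 over all genes, and Cdk6 had the largest difference of the list (-3.85 ± 0.40, adjusted p = 0.000351 in limma). Against EpiSC the NOD EpiSC-like lines were lower for 6 and higher for 0, where 8.22% of all genes were called lower and 7.88% higher. The 6 included Rrm2 (-2.35 ± 0.33), Mycn (-1.89 ± 0.27) and Cdk6 (-1.75 ± 0.27). Between the EpiSC-like lines 5 were higher and 6 lower in the iPS line, where 14.2% of all genes were called higher and 11.6% lower. Rrm2 (-2.92 ± 0.34), Myc (-1.72 ± 0.26) and Cdk6 (-1.54 ± 0.28) led. With normexp limma called none of the 19 (7 at an unadjusted p under 0.05) and 60 genes in all, and the slide as a block left 2 lower. In EpiSC iPS minus EpiSC 2 were higher and 5 lower, where 12.2% of all genes were called higher and 8.99% lower. In NOD ES minus mESM 3 were higher and 0 lower, where 5.88% of all genes were called higher and 3.06% lower. With the pair of doubtful arrays left out, 5 were higher and 8 lower in NOD EpiSC-like minus NOD ES. That fit called 23.4% of all genes higher and 28.3% lower there. It had 13 of the list lower in the interaction, where 20.2% of all genes were called lower. The slide as a block left 0 higher and 6 lower in the NOD comparison and none in the interaction (7 at an unadjusted p under 0.05 in limma).

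**Figure D5:**
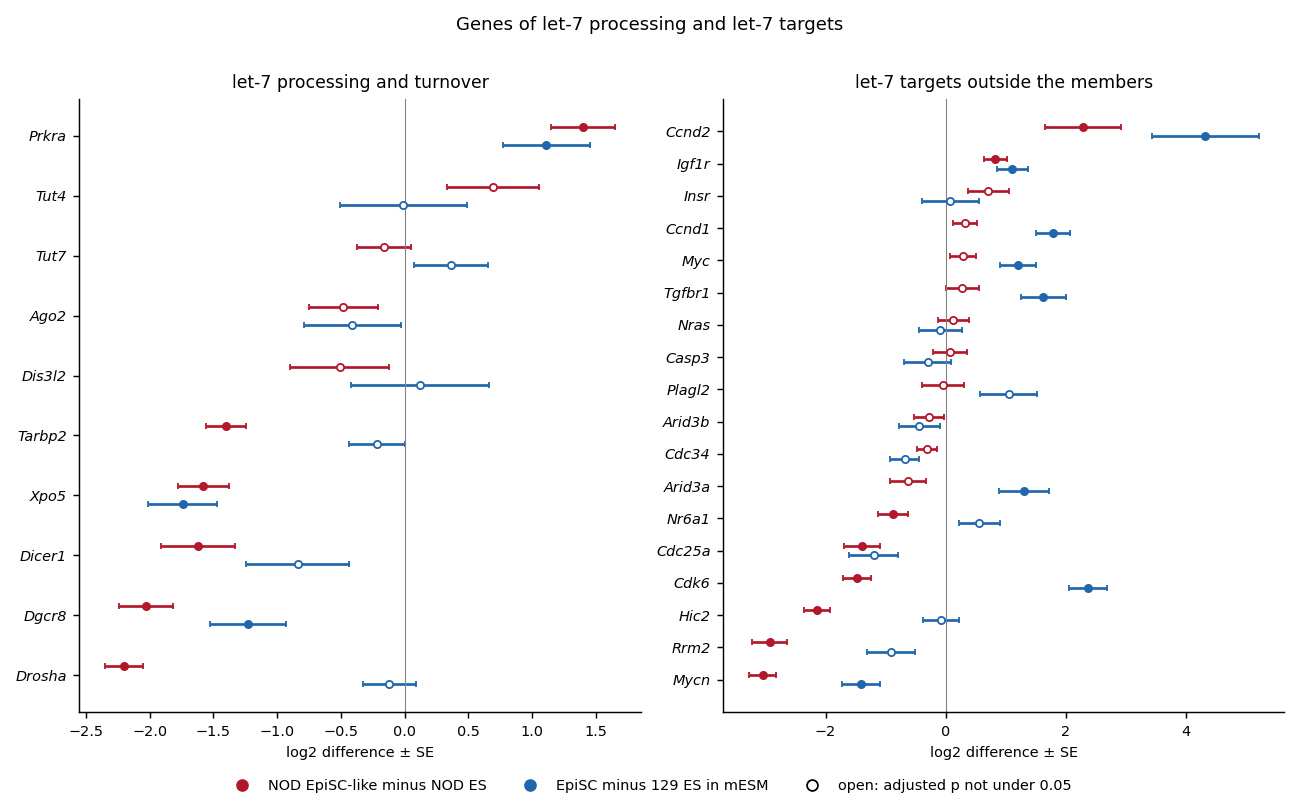
Log2 difference with SE of 10 genes of let-7 processing and turnover (left) and 18 of the 19 measured let-7 targets outside the members (right) in NOD EpiSC-like minus NOD ES and in EpiSC minus 129 ES in mESM, filled where the adjusted p was under 0.05. Drosha is at -2.20 in the NOD comparison and -0.12 outside NOD, and Cdk6 at -1.48 and 2.37.

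Most genes of the IGF axis and IGF2BP client RNAs were higher in NOD EpiSC-like cells and in EpiSC. In NOD EpiSC-like minus NOD ES, 9 of 10 were called higher and 0 lower (median 2.84), with Igfbp5 at 6.96 ± 0.83, the imprinted RNA H19 at 5.82 ± 0.46 and the growth factor Igf2 at 4.28 ± 0.45. In EpiSC minus mESM 6 were called higher and 0 lower (median 2.81), with H19 at 6.31 ± 0.63, Igf2 at 5.60 ± 0.62, and Igfbp5 at least 468-fold higher, since its probe was not well above background on either mESM array. In the interaction limma called none of the 10 (3 at an unadjusted p under 0.05, median 0.03). Without the pair of doubtful arrays 3 were called each way, where 15.2% of all genes were called higher and 20.2% lower. Between the EpiSC-like lines 1 was higher (Igf2r, 1.20 ± 0.20) and 1 lower (Igfbp3, -2.02 ± 0.33). In EpiSC iPS minus EpiSC 5 were lower and 0 higher, in NOD EpiSC-like minus EpiSC 2 were higher and 0 lower, and in NOD ES minus mESM 1 was called each way. The shares of all genes called either way in these comparisons are given with the let-7 processing list. Fibroblasts express many of these genes, and in NOD EpiSC-like minus NOD ES and EpiSC minus mESM the fibroblast sums were higher in the same cells. Their part was not tested. The NOD comparison had 9 higher without the pair of doubtful arrays, 5 with the slide as a block and 6 with normexp. Of all genes, 16.7% were called higher there with all arrays and 23.4% without the pair. The shares with the block and with normexp are not given here. EpiSC minus mESM had 8 higher and 1 lower without the pair, where 20.9% of all genes were called higher and 25.0% lower. It had 3 higher with the block and 5 with normexp, which called 1531 genes in all.

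Among 8 other oncofetal genes, 6 were called higher and 1 lower in NOD EpiSC-like minus NOD ES (median 1.64). Of all genes, 16.7% were called higher and 22.0% lower there. Dlk1, a fetal membrane protein, was higher (6.37 ± 0.78), and Sall4, a pluripotency factor, was lower (-3.25 ± 0.45). Afp, alpha-fetoprotein, was at least 7.33-fold higher as the mean of both lines (adjusted p = 0.000238 in limma). It was not well above background on any of the 3 NOD ES arrays. The states overlapped for Afp, which averaged 2.32 in the iPS line and -2.81 in the ES line. In EpiSC minus mESM 5 were higher and 0 lower (median 3.23), led by Mest (9.36 ± 0.47), Dlk1 (3.85 ± 1.09) and Peg3 (3.57 ± 0.35). Between the EpiSC-like lines, Afp was higher in the iPS line (5.13 ± 0.89), and 2 of the 8 were called each way. In EpiSC iPS minus EpiSC 5 were lower, and in NOD EpiSC-like minus EpiSC 1 was higher and 2 were lower. In NOD ES minus mESM 3 were higher, and in the interaction 3 were lower. The all-gene shares of these comparisons are those given with the let-7 processing list. Without the pair of doubtful arrays 6 were higher and 1 lower in NOD EpiSC-like minus NOD ES, and 2 were higher and 4 lower in the interaction. The other comparisons that hold these arrays changed as follows when the pair was left out. The all-gene shares of that fit are given with the members above. In EpiSC iPS minus EpiSC, 2 genes of the IGF list were higher and 5 lower, 6 and 2 of the let-7 processing list, 4 and 7 of the let-7 targets, and 1 and 5 of the other oncofetal genes. In NOD ES minus mESM, 5 genes of the IGF list were higher and 1 lower, 4 and 2 of the let-7 processing list, 5 and 3 of the let-7 targets, and 4 and 1 of the other oncofetal genes.

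Across the 16 arrays, Hmga1 and Igf2bp1 had the most similar patterns of any member pair (Pearson r = 0.96), and Hmga2 and Igf2bp1 the most opposed (r = -0.46). Lin28a correlated with Igf2bp1 at 0.75, with Hmga1 at 0.72 and with Lin28b at 0.71, and Lin28b with Hmga1 at only 0.12. The arrays share lines, slides and brightness, so these values are descriptions. Of 19050 other genes well above background on at least 8 arrays, the closest in pattern to Lin28a were Cecr2 (r = 0.981), Ola1 (0.976) and Dctpp1 (0.973). For Lin28b they were Depdc1b (0.975), Nectin3 (0.971) and the transcript AK041893 (0.944). For Hmga1 they included Utp23 (0.971) and Bex1 (0.968), and for Hmga2 Tusc1 (0.979) and Gli3 (0.965). For Igf2bp1 they were Nup50 (0.982), Cul4b (0.981) and 2410141K09Rik (0.978), and for Igf2bp2 Med22 (0.909), Stard7 (0.904) and Gdi2 (0.903). For Igf2bp3 they were Dis3l2 (0.946), the nuclease that degrades uridylated pre-let-7, Zfp952 (0.940) and 1700056N10Rik (0.936).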

How the data were processed

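RNA of 16 mouse cultures was labelled with Cy3 and hybridised to 1-colour Agilent arrays, per the labels' protocols. The scanner files hold intensity values made by the authors with Agilent Feature Extraction 10.1.1.1, per the file headers (45018 features, of which 1639 are controls). The deposited value table holds log2 values. Their rank matched each array's mean signal (Spearman 1), and all columns had a median of 6.93. The columns are thus on a common scale, and these values do not tell by which method. Per the submitters' processing notes limma was among the authors' tools. Each level is the log2 ratio of processed signal to the 75th percentile of its array. Control and outlier spots were left out, spots of a probe were averaged, probes well above background on at least 2 arrays were kept (34288 of 41174), and the probe with the highest mean stood for its gene. Probes were named by accession or symbol through RefSeq (8455 kept the array's own name).

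One limma 3.58.1 model (R 4.3.3) with a mean per group was fitted to all arrays, with lmFit and eBayes. The scripts were tested on simulated data. Replicates were numbered within groups by accession order, which is also why nothing was paired. Alternatives were quantile normalization, normexp (offset 50), the deposited table, no filter, the mean of a gene's probes, each probe alone, the slide as a block, averaging the mESM arrays, leaving out each array of the compared groups and leaving out 2 doubtful arrays. The array numbers per group, not read depth, limit the precision. The members and lists were chosen with earlier results of these data known. Named genes are every member, the up to 3 called genes of each list with the largest difference per comparison, and the 3 genes most like each member. Some of these are not reported here. The epiESM culture (1 array) is in no test.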

Additional observations from a re-analysis of the deposited data

Results flagged for a closer look

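For 4 members the difference between the primed-type and the naive state was not the same in NOD and non-NOD cells, by the interaction test in limma on the chosen probes. Igf2bp1, not among them, was called by its most 3' probe (-2.90 ± 0.36). The strain of the EpiSC is unknown beyond non-NOD, and the NOD cells were EpiSC-like lines. Strain and line type cannot be told apart from the NOD and non-NOD contrast here. The interaction was -1.96 (adjusted p = 0.00282) for Lin28a, which was lower in all 6 NOD EpiSC-like arrays than in all 3 NOD ES arrays. It was -2.14 (adjusted p = 0.00257) for Lin28b, with all 6 EpiSC-like arrays likewise below NOD ES. It was -4.93 (adjusted p = 0.00353) for Hmga2, which was higher on both EpiSC arrays than on both mESM arrays. In NOD the EpiSC-like lines lay on opposite sides of NOD ES (-0.50 to 1.29) by the chosen Hmga2 probe. All 4 ES-line arrays were above it (1.80 to 2.45) and both iPS-line arrays below it (-1.34 and -1.24). The interaction was -2.25 (adjusted p = 0.00838) for Igf2bp2, which was higher on both EpiSC arrays than on both mESM arrays and overlapped between the NOD states. The Hmga2 interaction was 0.34 by the probe at chr10:119756830-119756889 alone, by which both lines were above NOD ES. The Lin28b interaction was -0.16 with normexp background correction. All 4 differences by the chosen probes kept their sign when the 2 doubtful arrays were left out and with the slide as a block, but none was called with that block. Only NOD EpiSC-like ES has enough arrays to look for a single array far from its group, and no member showed one there.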

How the results depend on the processing

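Lin28a kept its call in NOD EpiSC-like minus NOD ES and minus EpiSC under every alternative run. Of the member values under alternatives, 669 counted as unchanged, 92 lost the call, 32 gained it and 42 changed sign. A tested value was unchanged if it kept its direction and side of the threshold. Within-slide values have no test and were unchanged if within the residual SD of the main value. For members not called, their sign was not checked, and 12 within-slide values moved by more than that SD. The cause of a change was not tested, except that normexp and the deposited table take the most 3' Igf2bp1 probe. No paired analysis was possible because the labels give the groups no shared replicate numbers. The array number, and signal near background for Lin28b, limit these results.

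Members called changed as follows, where each array left out belonged to the compared groups. In NOD EpiSC-like minus NOD ES the count was 2 with the slide as a block, 7 without the pair of doubtful arrays and 4 to 6 with each array left out. In EpiSC minus mESM it was 1 with normexp, 5 without the pair and 2 throughout with each array left out. In EpiSC iPS minus EpiSC it was 1 with normexp or the block, 5 without the pair and 2 to 3 with each array left out. In NOD EpiSC-like minus EpiSC it was 3 with no filter, the mean of probes or averaged mESM arrays, 5 with normexp, 6 with the deposited table, 7 without the pair and 2 to 4 with each array left out. Between the EpiSC-like lines it was 0 with normexp, 1 with the block, 3 with the deposited table or the mean of probes, and 3 to 5 with each array left out. In NOD ES minus mESM it was 0 with normexp, the block or averaged mESM arrays, 1 with no filter or the mean of probes, 4 without the pair and 0 to 3 with each array left out. The interaction gave 1 with normexp, 0 with the block, 7 without the pair and 4 to 5 with each array left out. Some of these fits called few genes at all. The block called 0 of all genes in NOD ES minus mESM, and normexp called 60 between the EpiSC-like lines and 36 in the interaction. A member count near 0 there says nothing of the members in particular.

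These values changed sign. With the deposited table they were Hmga1 -0.37 and Igf2bp3 -0.07 (NOD ES minus mESM), Igf2bp1 -0.39 (EpiSC-like lines) and Igf2bp3 -0.22 (EpiSC iPS minus EpiSC). With the mean of probes they were Cdk6 0.03, Dgcr8 0.04 and Igf2bp3 -0.51 (EpiSC-like lines), Igf2bp3 -0.07 (EpiSC iPS minus EpiSC) and -0.37 (NOD ES minus mESM), and Lin28b -0.31 (EpiSC minus mESM). With normexp they were, between the EpiSC-like lines, Dgcr8 0.75, Gpc3 -0.41, Hmga1 -0.44, Igf2bp1 -0.68, Igf2bp2 -0.36, Igf2bp3 -0.20, Igf2r -0.54, Lin28a 0.20 and Lin28b 0.47, and Igf2bp3 -0.05 in EpiSC iPS minus EpiSC. With quantile normalization they were Hmga1 0.08 (EpiSC minus mESM), Igf2bp1 -0.06 (NOD ES minus mESM) and Igf2bp3 -0.20 (EpiSC iPS minus EpiSC). Igf2bp2 was 1.07 with the block and Igf2bp3 -0.62 without the pair (EpiSC iPS minus EpiSC). By another single probe, Hmga2 was 0.18 (EpiSC-like lines), -1.15 (NOD ES minus mESM) and 0.34 (interaction), Igf2bp1 was -0.31 (EpiSC-like lines), and Lin28b was 1.14 (EpiSC iPS minus EpiSC), -1.13 (EpiSC minus mESM), 0.77 (EpiSC-like lines) and 0.55 (NOD ES minus mESM). Igf2bp3 by its other probes was -0.68 and -1.05 (EpiSC-like lines), -0.14 and -1.15 (NOD ES minus mESM) and -1.13 (EpiSC iPS minus EpiSC). With each array left out, Igf2bp3 ranged over -0.62 to 0.66 (EpiSC iPS minus EpiSC) and -0.31 to 1.15 (NOD ES minus mESM), Hmga1 over -0.27 to 0.04 and Lin28b over -0.18 to 0.34 (EpiSC minus mESM), Hmga2 over -0.13 to 0.77 (NOD EpiSC-like minus NOD ES) and Lin28a over -0.29 to 0.02 (EpiSC-like lines).

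The highest count of calls over all genes came without the pair in each comparison, and the lowest with normexp, or with the block in NOD EpiSC-like minus NOD ES and NOD ES minus mESM. Calls ranged over 6122 to 11984 in NOD EpiSC-like minus NOD ES (8969 as reported), 1531 to 10620 in EpiSC minus mESM (5707), 749 to 9737 in EpiSC iPS minus EpiSC (4902), 784 to 9568 in NOD EpiSC-like minus EpiSC (3730), 60 to 11732 between the EpiSC-like lines (5968), 0 to 5999 in NOD ES minus mESM (2070) and 36 to 8200 in the interaction (2904). The all-gene median of NOD EpiSC-like minus NOD ES was -0.03 with quantile normalization and 0.58 with normexp, against -0.27.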
